A study of Homo sapiens with 8 samples.

Results

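miR-103a-3p, miR-107 and miR-103b were read from small RNA sequencing of H1299 cells with and without the p53 mutant R273H. The rows were taken by name, and they are 3 of 945 miRNA rows (1226 features in all), present in each of the 3 deposited tables. H1299 is a non-small cell lung carcinoma cell line from a lymph node that makes no p53. The control cells (EV) carry an empty vector and were a gift of another laboratory, whereas the R273H cells came from G418-resistant colonies after transfection with a CMV-driven mutant cDNA, so the 2 lines differ in origin and selection as well as in the transgene. Each line was sequenced untreated and after 24 h with etoposide, a topoisomerase II poison that breaks DNA. The labels give the dose as 10 µM in one place and as 10 mM in another. Each of the 4 groups has 2 libraries, which the labels call replicates without saying whether they are separate cultures. The p-values of the fits measure the spread between such libraries, moderated by the spread over all miRNAs tested. In some fits, named below, they rest mostly on the latter. The comparisons asked which miRNAs differ with the mutant protein and which differ after DNA damage.

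A miRNA is cut from a hairpin, loaded into an Argonaute protein and guided by its seed, a short stretch near the 5′ end, to messages that it represses. The hairpins of miR-103 and miR-107 lie inside introns of the pantothenate kinase genes, whose enzymes catalyse the first step of coenzyme A synthesis, so a miRNA and its host message can arise from a single transcript. The family is known for targeting the processing enzyme DICER1 and for a part in insulin sensitivity, and miR-107 has been described as responsive to wild-type p53 in other cells.

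The mature sequences are shown because they fix what a read can tell apart. All were taken from RefSeq (GRCh38.p14), in which 825 of the 945 miRNA names were found, and capitals mark the seed (bases 2 to 8).
hsa-miR-103a-3p: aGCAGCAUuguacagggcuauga
hsa-miR-107: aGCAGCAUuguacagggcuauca
hsa-miR-103b: uCAUAGCCcuguacaaugcugcu
hsa-miR-103a-2-5p: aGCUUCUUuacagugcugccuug
miR-103a-3p and miR-107 are both 23 bases long and share the seed GCAGCAU, which no other row with a RefSeq sequence had. They differ at 1 base, G22C (miR-103a-3p first, counted from the 5′ end), and their first 21 bases are identical. Since reads of 17 to 35 bases were kept, a read that ends at or before base 21 matches both, and how such reads were shared out is not given in the sources used here. miR-103b is the exact reverse complement of miR-103a-3p and has another seed. Whether alignment was held to 1 strand is not given either, so values of miR-103b are uncertain on that account. miR-103a-2-5p is not a member but the other arm of the hairpin in PANK2, and the corresponding arm from PANK3 (hsa-miR-103a-1-5p), which differs from it by A1G, had no row. The 5′ arm of the MIR107 hairpin differs from it by C16U. Whether reads of these arms were counted as miR-103a-2-5p is not given in the sources used here.

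In GRCh37, miR-103a-3p is encoded at 2 places. MIR103A1 lies on the minus strand of chromosome 5 (chr5:167987897-167987982, mature miRNA at chr5:167987909-167987931) within intron 5 of the 6 introns of PANK3. MIR103A2 lies on the plus strand of chromosome 20 (chr20:3898141-3898218, mature miRNA at chr20:3898188-3898210) within intron 5 of 6 of PANK2. MIR107 lies on the minus strand of chromosome 10 (chr10:91352500-91352586, mature miRNA at chr10:91352513-91352535) within intron 5 of 6 of PANK1. Each hairpin is on the strand of its host gene, and the introns are 2235, 1620 and 4419 bases long for PANK3, PANK2 and PANK1. The mature miR-103a-3p of both hairpins is identical, so its reads are the sum of 2 loci. The host messages were not measured in these libraries.

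The libraries held 234545 to 579367 reads over all features and 213007 to 536991 miRNA reads, of which miR-21-5p took 30.6% to 44.5%. The epithelial markers (miR-200a-3p, miR-200b-3p, miR-200c-3p, miR-141-3p, miR-429 and miR-205-5p) all had rows but summed to 3.95 to 44.3 rpm per library (reads scaled to a total of 1000000 miRNA reads). The blood (3 of 6 with a row), muscle (3 of 3) and liver (1 of 1) lists summed to at most 70.4, 59.0 and 32.9 rpm. The stromal and endothelial list (miR-143-3p, miR-145-5p and miR-126-3p) summed to 2326 to 2346 rpm in untreated EV, 1121 to 1231 in untreated R273H, 2380 to 4159 in EV with etoposide and 1652 to 2265 in R273H with etoposide. Nearly all of that last sum was miR-126-3p, which alone averaged 2169 rpm over the 8 libraries, so its differences between groups are mainly those of 1 miRNA. No listed marker with a row was at 0 in every library. The part of these differences in the results below was not tested.

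miR-103a-3p was among the most abundant miRNAs in every library and, in rpm, among those that varied least between libraries, whereas its deposited normalized counts, given below, differed more between replicates. It ranked between 5 and 9 in abundance, and its reads numbered 12390 and 5538 in untreated EV, 10531 and 9290 in untreated R273H, 5966 and 10592 in EV with etoposide, and 15341 and 10590 in R273H with etoposide. In rpm, these were 23073 and 22168 in untreated EV and 23308 and 22841 in untreated R273H. With etoposide they were 28008.5 and 29240 in EV and 30277 and 30356 in R273H. The 4 untreated libraries lay close together and below all 4 etoposide libraries on this scale. The highest value was 1.37 times the lowest, and the replicates of a group differed by 0.260% to 4.30% of their mean. The coefficient of variation over the 8 libraries was 13.9%, and 4 of the 147 miRNAs with a mean of at least 100 rpm had a lower one, the median being 41.2%. Many of the 147 had far fewer reads and so more counting error, and the ranking was not adjusted for abundance.

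miR-107 was far less abundant, at rank 63 to 74. Its reads numbered 353 and 101 in untreated EV, 225 and 167 in untreated R273H, 190 and 232 in EV with etoposide, and 323 and 346 in R273H with etoposide. In rpm, the values were 657 and 404, 498 and 411, 892 and 640, and 637 and 992 in the same order. The etoposide groups had the higher means, but their lowest library (637) was below the highest untreated one (657). The coefficient of variation was 33.1%, and 44 of the 147 miRNAs had a lower one.

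miR-103b was the rarest of the 3, at rank 92 to 153, with 105 and 35 reads in untreated EV, 93 and 34 in untreated R273H, 29 and 43 in EV with etoposide, and 154 and 55 in R273H with etoposide. In rpm, it stood at 196 and 140, 206 and 83.6, 136 and 119, and 304 and 158. Replicates of R273H differed by 84.5% of their mean when untreated and by 63.4% with etoposide, so the spread within that line covered most of the range of all libraries. The highest library was 3.64 times the lowest.

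In rpm, the group means of miR-103a-3p were in the order 22621 ± 640 in untreated EV, 23074 ± 330 in untreated R273H, 28624 ± 871 in EV with etoposide and 30317 ± 55.8 in R273H with etoposide (SD, n = 2 each). The first 2 groups overlapped, and the order of the lines under etoposide was the reverse in the TMM-scaled fit below. For miR-107 the order was untreated R273H (454 ± 61.8), untreated EV (531 ± 179), EV with etoposide (766 ± 178) and R273H with etoposide (815 ± 251), and every pair of neighbours overlapped. For miR-103b it was EV with etoposide, untreated R273H, untreated EV and R273H with etoposide, again with overlap between all neighbours.

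The share of each small RNA within the family was then compared, since a share needs no scaling between libraries. miR-107 made up 2.77% (95% Wilson interval 2.50 to 3.07) and 1.79% (1.48 to 2.17) of the reads of miR-103a-3p and miR-107 in untreated EV, and 2.09% (1.84 to 2.38) and 1.77% (1.52 to 2.05) in untreated R273H. With etoposide it made up 3.09% (2.68 to 3.55) and 2.14% (1.89 to 2.43) in EV, and 2.06% (1.85 to 2.30) and 3.16% (2.85 to 3.51) in R273H. The intervals cover counting error only, and in 3 of the 4 groups the intervals of the replicates did not meet. The mean share was 2.27% in R273H and 2.45% in EV, a difference of -0.177 percentage points (exact permutation test of the lines within treatment, two-sided, p = 0.722, n = 4 each). It was 2.61% with etoposide and 2.10% without, a difference of 0.509 points (exact permutation test within line, two-sided, p = 0.278, n = 4 each). The smallest p that these tests can give is 0.0556, so neither could pass a threshold of 0.05.

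miR-103b made up 0.840% and 0.628% of the reads of miR-103a-3p and miR-103b in untreated EV, 0.875% and 0.365% in untreated R273H, 0.484% and 0.404% in EV with etoposide, and 0.994% and 0.517% in R273H with etoposide. In each R273H group 1 library lay above every EV library and the other lay within or below the EV range. The mean share differed by 0.0985 points between R273H and EV (exact permutation p = 0.556, two-sided) and by -0.0774 points between etoposide and untreated (exact permutation p = 0.722, two-sided).

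The share that separated the lines was that of the other arm. miR-103a-2-5p had 3 and 0 reads in untreated EV and 1 and 0 in EV with etoposide, against 18 and 12 in untreated R273H and 10 and 10 in R273H with etoposide. Of the reads of both arms, in which miR-103a-3p sums 2 loci, it was 0.0242% and 0% in untreated EV, 0.0168% and 0% in EV with etoposide, 0.171% and 0.129% in untreated R273H, and 0.0651% and 0.0943% in R273H with etoposide. The 95% Wilson upper limits of the 0 counts were 0.0693% of 5538 reads (EV untreated replicate 2) and 0.0363% of 10592 reads (EV etoposide replicate 2), counting error only. That of EV etoposide replicate 1 was 0.0949%, so some intervals of the lines met. As counted, all 4 R273H libraries lay above all 4 EV libraries. In rpm the same held for miR-103a-2-5p, as it did for 9.28% of the 334 miRNAs tested. The mean was 0.115% in R273H and 0.0102% in EV (exact permutation p = 0.0556, the smallest this test can give, two-sided). Taken over both lines, etoposide and untreated libraries overlapped (exact permutation p = 0.167, two-sided). In R273H alone both etoposide shares lay below both untreated ones, at 10 and 10 reads against 18 and 12, while the EV counts were at the floor.

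R273H against EV, untreated. None of the 3 miRNAs differed between the lines beyond the replicate spread. The deposited normalized count of miR-103a-3p (reads divided by a size factor of the library) was 8578 and 8826 in EV and 10805 and 8257 in R273H. That of miR-107 was 244 and 161 in EV and 231 and 148 in R273H, and that of miR-103b was 72.7 and 55.8 in EV and 95.4 and 30.2 in R273H. The EV values of miR-103a-3p and miR-103b lay between the R273H values, and the miR-107 values of both lines interleaved, so all 3 groups overlapped. Of all 304 miRNAs tested, 61.5% had lines that did not overlap.

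On the log2(normalized count + 1) scale, the difference was 0.12 for miR-103a-3p (SE 0.26, 95% interval -0.42 to 0.65, adjusted p = 0.768, limma with Benjamini-Hochberg adjustment over all miRNAs tested). It was -0.10 for miR-107 (SE 0.35, interval -0.84 to 0.64, limma adjusted p = 0.860) and -0.24 for miR-103b (SE 0.47, interval -1.21 to 0.74, limma adjusted p = 0.753). In the same test 62 of 304 miRNAs (20.4%) were called at an adjusted p under 0.05, and 0 of the 3 members were. The sum of miR-103a-3p and miR-107 does not depend on how their shared reads were split, provided that each was counted once, in either row. It averaged 8905 ± 117 for EV and 9721 ± 1860 for the mutant line (SD, n = 2 each), a log2 difference of 0.11 (interval -0.42 to 0.65, limma adjusted p = 0.775). The intervals of all 3 members reach past 0.60, the median size of the log2 difference over all miRNAs. The size of the difference was smaller in 30 miRNAs than in miR-103a-3p, in 24 than in miR-107 and in 57 than in miR-103b. The sign of miR-103a-3p was the same with equal upper quartiles (0.19) and equal miRNA totals (0.029) and turned with edgeR (-0.05), where the median of all miRNAs moved from 0.10 to -0.09, and relative to that median it was 0.02 with limma and 0.04 with edgeR. It also turned without R273H untreated replicate 1 (-0.076).

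miR-103a-2-5p differed in the same comparison. Its normalized count was 2.08 and 0 in EV and 18.5 and 10.7 in R273H, and every EV value was at or below the worth of 3 reads. The mean in R273H was 4.25 times that floor on the normalized scale and 3.94 times on the scale of miRNA reads, with no allowance for counting error. The fitted log2 difference of 3.10 (SE 0.67, limma adjusted p = 0.00339) depends on the added count of 1 and is no bound. The row passed the filter, a mean of at least 3, through R273H alone (mean 14.6, against 1.04 in EV). It fell out at a mean of at least 10. Its call thus adds nothing to the counts above. The call was lost with DESeq2 (adjusted p = 0.0774). With either untreated R273H library left out, 0 of 304 miRNAs were called (56 and 67 at an unadjusted p under 0.05, limma), and the spread then came from EV alone. The difference was 2.73 without replicate 1 and 3.47 without replicate 2 (limma adjusted p = 0.281 and 0.203).

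Etoposide in EV. No member passed the test here either, and miR-103b was the only one of the 3 whose groups did not overlap. The normalized counts of miR-103a-3p were 7991 and 8383 untreated and 5689 and 10422 with etoposide, so the treated libraries lay on both sides of the untreated ones. miR-107 stood at 228 and 153 untreated and 181 and 228 with etoposide, which overlapped. miR-103b stood at 67.7 and 53.0 untreated and 27.7 and 42.3 with etoposide, and both treated libraries were below both untreated ones, as groups that do not overlap were for 34.1% of the 296 miRNAs tested.

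The log2 difference was -0.09 for miR-103a-3p (SE 0.53, interval -1.13 to 0.95, limma adjusted p = 0.993) and 0.12 for miR-107 (SE 0.36, interval -0.58 to 0.83, limma adjusted p = 0.993). For miR-103b it was -0.79 (SE 0.44, interval -1.65 to 0.07, unadjusted p = 0.0707, limma adjusted p = 0.635), a size larger than that of 245 of the 296 miRNAs. In this fit the SE rested almost wholly on the spread of all 296 miRNAs through the intensity trend (592 degrees of freedom). A member's own replicates hardly entered it. Of the 296, 2 (0.676%) were called, and 0 of the 3 members were. The sum of miR-103a-3p and miR-107 differed by -0.08 (limma adjusted p = 0.993). EV etoposide replicate 1 set the sign for miR-103a-3p, whose difference was 0.35 without that library.

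Etoposide in R273H. The normalized counts of miR-103a-3p were 14002 and 10970 untreated and 12648 and 7862 with etoposide, those of miR-107 were 299 and 197 untreated and 266 and 257 with etoposide, and those of miR-103b were 124 and 40.2 untreated and 127 and 40.8 with etoposide. All 3 overlapped, whereas 39.3% of the 341 miRNAs tested had groups that did not. miR-103b had 1 high and 1 low library in each condition, at nearly the same levels.

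The log2 difference was -0.31 for miR-103a-3p (SE 0.43, interval -1.24 to 0.62, limma adjusted p = 0.918), 0.11 for miR-107 (SE 0.33, interval -0.60 to 0.81, limma adjusted p = 0.966) and 0.03 for miR-103b (SE 0.54, interval -1.15 to 1.21, limma adjusted p = 0.986). The test called 0 of 341 miRNAs (0%), with 31 (9.09%) at an unadjusted p under 0.05, and edgeR and DESeq2 called 0 and 1. The sum of miR-103a-3p and miR-107 differed by -0.30 (limma adjusted p = 0.918). The size of the difference was smaller in 159 of the 341 miRNAs than in miR-103a-3p, in 60 than in miR-107 and in 17 than in miR-103b. With 1 library left out the value of miR-103b ranged from -0.78 (without etoposide replicate 1) to 0.84 (without etoposide replicate 2), and that of miR-103a-3p was 0.029 without etoposide replicate 2. miR-103a-2-5p was at 23.9 and 14.2 untreated and 8.24 and 7.42 with etoposide, a log2 difference of -1.14 (SE 0.42, unadjusted p = 0.0172, limma adjusted p = 0.472) that did not pass the adjustment. Its groups did not overlap, as was so for 39.3% of the 341 miRNAs.

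The direction of miR-103a-3p after etoposide turned with the scale. As a share of miRNA reads it was higher with etoposide in both lines (2.80% and 2.92% against 2.31% and 2.22% in EV, 3.03% and 3.04% against 2.33% and 2.28% in R273H), and in normalized counts the differences were -0.09 and -0.31. The mean share was 2.95% with etoposide and 2.28% without, a difference of 0.662 points (exact permutation test within line, two-sided, p = 0.0556, the smallest it can give), higher in 4 of 4 etoposide libraries than in any untreated one. On that scale 24 of 334 miRNAs (7.19%) had all 4 etoposide libraries above all 4 untreated ones. Within a line, both etoposide libraries were above both untreated ones for 31.1% of the miRNAs in EV and for 54.2% in R273H.

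The 2 scales differ in the total they allow. With the deposited size factors the miRNA rows summed to 346328 and 378148 in untreated EV and to 203118 and 356444 with etoposide, and in R273H to 600738 and 480281 untreated and 417730 and 259000 with etoposide. When all libraries were instead given equal miRNA totals, a scaling added after the data were seen, the log2 difference of miR-103a-3p was 0.34 in EV (limma adjusted p = 0.790) and 0.39 in R273H (unadjusted p = 0.0406, limma adjusted p = 0.327). The median of all miRNAs then moved from -0.03 to 0.38 in EV and from 0.02 to 0.71 in R273H. Relative to the median, miR-103a-3p stood at -0.05 and -0.04 in EV and at -0.33 and -0.31 in R273H under the deposited and the equal totals. miR-107 stood at 0.16 and 0.17 in EV and 0.09 and 0.11 in R273H. Which scale is nearer to amounts per cell was not tested, and fewer cells and less RNA per cell cannot be told apart in such bulk libraries.

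R273H against EV under etoposide. No deposited table holds both groups, so the recovered reads of all 8 libraries were fitted together with edgeR. In this fit too the SE rested mostly on the spread of all 334 miRNAs, and a member's own replicates hardly entered it. The difference was -0.28 for miR-103a-3p (SE 0.39, interval -1.05 to 0.49, edgeR adjusted p = 0.684), -0.27 for miR-107 (SE 0.33, interval -0.93 to 0.38, edgeR adjusted p = 0.624) and 0.61 for miR-103b (SE 0.39, interval -0.16 to 1.38, edgeR adjusted p = 0.277). The test called 75 of 334 miRNAs (22.5%) and 0 of the 3 members. The sign of miR-103a-3p and miR-107 again turned with the scale, to 0.083 and 0.089 with equal miRNA totals, and that of miR-103a-3p to 0.15 without EV etoposide replicate 2. The value of miR-103b rested on R273H etoposide replicate 1, without which it was -0.34. miR-103a-2-5p differed by 3.15 (edgeR adjusted p = 0.0387), and it again passed the filter through R273H alone. Its mean in R273H with etoposide was 2.16 times the floor of 3 reads per library, with no allowance for counting error. The edgeR call was lost with DESeq2 (adjusted p = 0.172) and with equal miRNA totals (edgeR adjusted p = 0.0932). It was also lost without any 1 of 5 libraries, EV etoposide replicate 2 or any R273H library, where the difference was 2.25 to 3.16.

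The response to etoposide was then compared between the lines in the same fit. The response in R273H minus that in EV was -0.23 for miR-103a-3p (interval -1.32 to 0.86), 0.03 for miR-107 (interval -0.90 to 0.95) and 0.87 for miR-103b (interval -0.20 to 1.95, unadjusted p = 0.112), each with an edgeR adjusted p of 1.00. Of 334 miRNAs, 0 (0%) were called, with 12 (3.59%) at an unadjusted p under 0.05, and DESeq2 called 0 with 5 at an unadjusted p under 0.05. The intervals of all 3 members reach 0.86 or more on the log2 scale in at least 1 direction.

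miR-103a-3p and miR-107 belong to a wider group, most of which shares the bases AGCAGCA near the 5′ end. In miR-15 and miR-16 these bases are the seed, and in miR-103a-3p and miR-107 they begin 1 base earlier, as the capitals show for the miRNAs with the most reads.
hsa-miR-103a-3p: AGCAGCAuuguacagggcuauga
hsa-miR-107: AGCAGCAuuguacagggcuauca
hsa-miR-16-5p: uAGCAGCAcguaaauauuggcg
hsa-miR-15b-5p: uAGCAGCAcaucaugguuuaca
hsa-miR-15a-5p: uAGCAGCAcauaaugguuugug
The other members listed are miR-195-5p, miR-424-5p, miR-497-5p, miR-503-5p and miR-646, the last of which had no row, and the seeds of the last pair depart from this stretch at its last base. miR-15 and miR-16 are known as brakes on the cell cycle and on BCL2.

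miR-103a-3p was the largest part of this group in every library. With miR-107 it took 56.6% and 56.6% of the group's reads in untreated EV, 52.5% and 46.4% in untreated R273H, 50.4% and 58.0% in EV with etoposide, and 47.8% and 43.8% in R273H with etoposide. Within each treatment the R273H libraries lay below the EV libraries, but EV etoposide replicate 1 was below R273H untreated replicate 1. The mean was 47.6% in R273H and 55.4% in EV, a difference of -7.76 points (exact permutation test within treatment, two-sided, p = 0.0556, the smallest it can give). The share of miR-16-5p went the other way, at 16.6% and 15.0% in untreated EV, 28.9% and 32.7% in untreated R273H, 27.7% and 16.8% in EV with etoposide, and 30.6% and 33.4% in R273H with etoposide (exact permutation p = 0.0556 for the lines, two-sided). The share of miR-15b-5p differed by -5.48 points between the lines (exact permutation p = 0.111, two-sided). These shares are parts of 1 total, so a higher share of miR-16-5p lowers the rest, and the tests are not independent. In rpm, miR-103a-3p averaged 22621 in untreated EV and 23074 in untreated R273H. The whole group made up 4.77% of miRNA reads in EV and 5.79% in R273H, and 4.43% untreated and 6.13% with etoposide (exact permutation p = 0.0556 for each, two-sided, the smallest the tests can give).

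In the untreated comparison, 2 of the 6 other group members tested were higher in R273H and 0 were lower, with a median log2 difference of 0.17 against 0.10 over all 304 miRNAs (10.9% of them higher). miR-16-5p stood at 2584 and 2386 in EV and at 6073 and 5926 in R273H, a log2 difference of 1.27 (SE 0.26, limma adjusted p = 0.00287). miR-15a-5p stood at 188 and 198 in EV and at 483 and 382 in R273H, a difference of 1.15 (SE 0.31, limma adjusted p = 0.0144). Both calls were lost without the trend (limma adjusted p = 0.0576 for miR-16-5p and 0.0762 for miR-15a-5p). With either untreated R273H library left out, where 0 miRNAs were called, the differences were 1.25 and 1.29 for miR-16-5p and 0.98 and 1.32 for miR-15a-5p (limma adjusted p 0.159 to 0.222). miR-15b-5p, which differs from miR-15a-5p outside the seed, had a difference of -0.33 (limma adjusted p = 0.382).

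Under etoposide, 1 of 7 tested group members was higher in R273H, miR-15a-5p at 0.94 (edgeR adjusted p = 0.0284, and 0.0665 with equal miRNA totals), where 8.08% of all 334 miRNAs were. The call was lost without EV etoposide replicate 2 or without either R273H etoposide library (edgeR adjusted p 0.0758 to 0.238). miR-16-5p differed by 0.55 (edgeR adjusted p = 0.298), and with equal miRNA totals by 0.83 (edgeR adjusted p = 0.0316), so which of the pair was called turned with the scaling. Etoposide changed 0 of 6 group members in EV, where 0.676% of all miRNAs were called, and 0 of 7 in R273H, where 0% were, with median differences of 0.13 against -0.03 over all miRNAs and -0.05 against 0.02. The largest value in EV was that of miR-503-5p, 0.97 (unadjusted p = 0.0113, limma adjusted p = 0.302). In these tests the members that share the seed GCAGCAU were not called in any comparison, and calls in the group fell on miR-15a-5p and miR-16-5p.

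**Figure D1:**
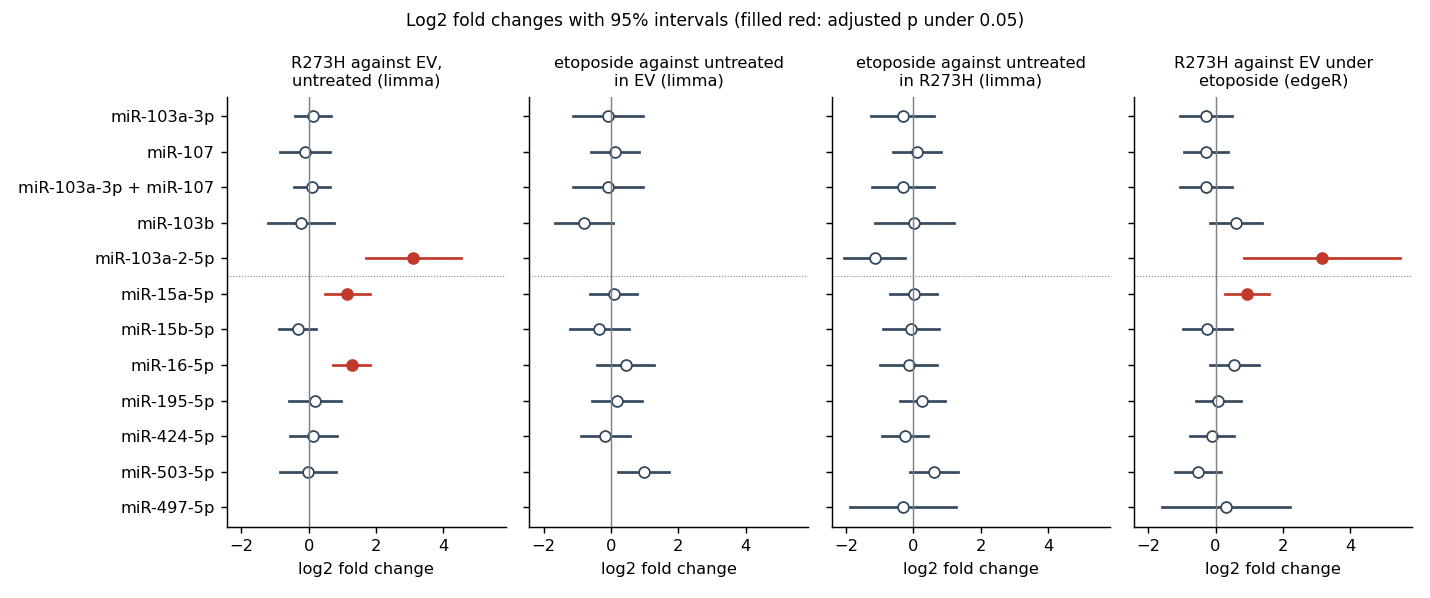
Log2 fold changes with 95% intervals of the members, their sum and the other arm (above the dotted line) and of the rest of the miR-15/miR-107 group (below it) in 4 comparisons. Filled red points have an adjusted p under 0.05: miR-103a-2-5p, miR-15a-5p and miR-16-5p in untreated cells, and miR-103a-2-5p and miR-15a-5p under etoposide.

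The miRNAs whose levels ran most like each member were listed as a description, by Pearson's r over the 8 libraries of log2(rpm + 1) among 146 other miRNAs with a mean of at least 100 rpm. For miR-103a-3p these were miR-224-5p (0.910), miR-25-3p (0.887), miR-660-5p (0.880), miR-101-3p (0.853) and miR-26b-5p (0.845). For miR-107 these were miR-424-5p (0.915), miR-192-5p (0.914), miR-423-3p (0.899), miR-660-5p (0.881) and miR-25-3p (0.880). miR-25-3p and miR-660-5p stood in both lists, and miR-107 itself followed miR-103a-3p at 0.770. miR-103b ran like neither (0.268 with miR-103a-3p and 0.245 with miR-107), and its nearest miRNA was miR-365a-3p at 0.475, followed by miR-93-3p (0.444), miR-590-5p (0.438), miR-551b-3p (0.412) and miR-128-3p (0.362). The points share the libraries and their miRNA totals, so values in rpm move together where the total changes.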

How the data were processed

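Small RNA of 8 H1299 libraries was sequenced. The authors trimmed reads to 17 to 35 bases, aligned them to miRBase 20 with SHRiMP, mapped the rest to GRCh37 with Novoalign, and counted reads per feature. They deposited 3 tables of normalized signal, in which each count is divided by a DESeq size factor of its library, set separately per table. All values (100%) were whole multiples of the worth of 1 read within 0.0051, so read counts were recovered. The deposited comparison tables (the authors' fold changes and p-values) were not used.

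Each table was tested with limma 3.58.1 in R 4.3.3, with an intensity trend and Benjamini-Hochberg adjustment, after taking log2(normalized count + 1) of the miRNAs that averaged at least 3. Contrasts across tables used the quasi-likelihood test of edgeR 4.0.16 with TMM on recovered reads. Alternatives were pseudocounts of 0.5 and 5, no filter or a mean of at least 10, equal upper quartiles, equal miRNA totals, no trend, edgeR, DESeq2 1.42.0, a replicate block, and each library left out. Shares were compared by exact permutation within the other factor. Only the tests of the miR-107 share were planned, and none of these p-values was adjusted for the number of shares tested. Depth was 234545 to 579367 reads per library, and intervals and limits cover counting error only. A group at 3 or fewer reads per library was treated as a floor. The fits were tested on simulated data. Hairpin positions came from GENCODE 44 lifted to GRCh37.

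Named were the 3 member rows, the other arms of their hairpins, the miR-15/miR-107 group, and the 5 miRNAs with the highest Pearson r to each member. The members, lists and markers were chosen with earlier results of these data known.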

Additional observations from a re-analysis of the deposited data

How the results depend on the processing

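The members were called under 0 of the alternatives tried. Of 168 member values with all libraries, 150 kept their direction and 18 turned it, and of 112 values with 1 library left out, 26 turned it. The lowest adjusted p of any of these was 0.0586 (miR-103b, R273H against EV under etoposide, edgeR with upper quartile normalization, 0.94). The cause of these turns was not tested. With 2 libraries per group, the intervals of the members reach past a 1.5-fold change in at least 1 direction, and miR-103b and miR-103a-2-5p are also limited by their low read counts.

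The values that turned were, for R273H against EV untreated, -0.049 for miR-103a-3p and -0.052 for the sum of miR-103a-3p and miR-107 with edgeR. For etoposide with equal miRNA totals, they were 0.34 and 0.34 in EV and 0.39 and 0.40 in R273H for miR-103a-3p and the sum. In R273H with equal upper quartiles they were -0.085 for miR-103b and -0.010 for miR-107. For R273H against EV under etoposide they were 0.026, 0.038 and 0.0055 for miR-103a-3p, miR-107 and the sum with upper quartile normalization, and 0.083, 0.089 and 0.083 with equal miRNA totals. For the difference of the etoposide response they were 0.054 and 0.060 for miR-103a-3p and the sum with equal miRNA totals, -0.0093 for miR-107 with DESeq2 and -0.065 with upper quartile normalization, and for miR-103a-2-5p -0.024 with upper quartile normalization and -0.014 with the replicate block.

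With 1 library left out, the log2 differences of R273H against EV untreated ranged from -0.076 to 0.31 for miR-103a-3p, -0.42 to 0.22 for miR-107, -1.05 to 0.58 for miR-103b and -0.083 to 0.31 for the sum. Those of etoposide in EV ranged from -0.52 to 0.35, -0.16 to 0.41, -1.09 to -0.49 and -0.51 to 0.35 in the same order. Those of etoposide in R273H ranged from -0.66 to 0.029, -0.19 to 0.41, -0.78 to 0.84 and -0.64 to 0.031. Those of R273H against EV under etoposide ranged from -0.61 to 0.15, -0.38 to -0.16, -0.34 to 1.19 and -0.61 to 0.14. The differences of the etoposide response ranged from -0.65 to 0.21, -0.34 to 0.32, -0.18 to 1.85 and -0.62 to 0.22, and that of miR-103a-2-5p from -3.85 to 2.76. The difference in the share of miR-107 ranged from -0.452 to 0.0986 points between the lines and from 0.234 to 0.785 points for etoposide.

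The 62 miRNAs called between the untreated lines became 38 with equal miRNA totals, 39 without the trend, 34 with DESeq2 and 0 with the replicate block, and 0 to 51 with 1 library left out (41 without EV replicate 2 and 0 without either R273H library). The split into higher and lower was 33 and 29, and 15 and 28 with edgeR, 11 and 23 with DESeq2, and 16 and 22 with equal miRNA totals. The 2 called for etoposide in EV became 0 with equal miRNA totals, 1 without the trend, with edgeR or with DESeq2, and 0 to 1 with 1 library left out. The 0 called in R273H became 2 with a mean of at least 10, 2 with equal miRNA totals, 1 with DESeq2, and 0 to 9 with 1 library left out (9 without etoposide replicate 1). The 75 called between the lines under etoposide (27 higher, 48 lower) became 47 with DESeq2, 22 with equal miRNA totals (11 and 11), 70 with upper quartile normalization (47 and 23), and 23 to 77 with 1 library left out (37 without EV etoposide replicate 2, 23 and 26 without an R273H etoposide library). The 0 called for the difference became 0 to 1 (1 without R273H untreated replicate 2).

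The replicate numbers were not taken as pairs, since no label ties them and the correlations of same-numbered deviations ranged from -0.379 to 0.258 over the pairs of groups (237 miRNAs). With the replicate number as a block, no member was called, miR-103a-2-5p had adjusted p-values of 0.0617 untreated (limma) and 0.0717 under etoposide (edgeR), and miR-16-5p and miR-15a-5p had 0.0617 and 0.0774 untreated (limma).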
